A study of Mus musculus with 20 samples.

Results

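The genes described here encode the mucus of the small intestine and the goblet cells that make it. They are Muc2, Tff3, Fcgbp, Clca1, Zg16, Agr2, Spdef, Spink4, Retnlb and Muc13, 10 of the 55487 genes in the table. The genes were picked by symbol and not by their values, though with earlier results of these data known. Of these 10, 9 had enough counts to be tested and Retnlb did not. RNA with polyA tails was sequenced in bulk from small intestine of mice in 4 groups of 5 libraries, in order to compare pups of dams with periodontitis, an inflammation of the tissue around the teeth, with pups of control dams. The groups were 7-week pups of dams with periodontitis, 7-week pups of control dams, 2-week pups of dams with periodontitis and 2-week pups of control dams. The pups are called periodontitis pups and control pups below, although the condition was that of the dam. The labels give no strain, sex, litter, number of pups per library or segment of the intestine, so the p-values measure the spread between libraries and treat pups of 1 litter as independent.

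Goblet cells are secretory cells of the intestinal epithelium that arise from dividing crypt cells under the transcription factor Atoh1. They pack the gel-forming mucin Muc2 into granules and release it to form the mucus that keeps bacteria from the epithelium. In the small intestine the mucus is loose and is freed from the cell surface by proteases, and the gut changes greatly at weaning, when milk gives way to solid food and the bacterial community grows.

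RefSeq promoter sequences on GRCm38.p6 were at hand for 5 of the 10 genes, Muc2, Fcgbp, Agr2, Spdef and Muc13. Those of Muc2 and Muc13, whose RNA was higher at 7 weeks, and of Agr2 and Spdef, whose RNA was lower, are shown. They were picked because genes of this list moved in opposite directions with age. Each runs from 250 bases before to 50 bases after the start on the strand of the gene. Capitals mark matches to a searched motif on either strand. The windows are chr7:141690090-141690389 on the plus strand for Muc2, chr16:33793787-33794086 on the plus strand for the first of the 2 listed starts of Muc13, chr12:35992675-35992974 on the plus strand for Agr2 and chr17:27728902-27729201 on the minus strand for Spdef.
Muc2: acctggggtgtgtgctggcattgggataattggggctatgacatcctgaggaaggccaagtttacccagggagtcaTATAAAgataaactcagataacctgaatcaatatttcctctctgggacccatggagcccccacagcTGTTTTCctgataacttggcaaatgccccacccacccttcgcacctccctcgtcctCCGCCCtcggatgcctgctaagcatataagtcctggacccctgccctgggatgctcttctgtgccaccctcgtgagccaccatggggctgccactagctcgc
Muc13: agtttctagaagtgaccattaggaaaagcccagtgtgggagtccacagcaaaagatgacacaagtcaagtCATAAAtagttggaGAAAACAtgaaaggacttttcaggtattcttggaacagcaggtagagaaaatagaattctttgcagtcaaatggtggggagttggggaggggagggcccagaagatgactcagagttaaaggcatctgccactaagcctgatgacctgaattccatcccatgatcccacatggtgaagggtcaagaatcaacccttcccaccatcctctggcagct
Agr2: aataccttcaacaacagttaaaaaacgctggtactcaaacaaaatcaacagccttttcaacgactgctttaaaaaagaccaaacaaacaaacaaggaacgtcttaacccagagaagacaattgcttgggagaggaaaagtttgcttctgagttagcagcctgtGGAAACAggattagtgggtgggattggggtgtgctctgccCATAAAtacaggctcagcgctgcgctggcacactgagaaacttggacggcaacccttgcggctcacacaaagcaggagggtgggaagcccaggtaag
Spdef: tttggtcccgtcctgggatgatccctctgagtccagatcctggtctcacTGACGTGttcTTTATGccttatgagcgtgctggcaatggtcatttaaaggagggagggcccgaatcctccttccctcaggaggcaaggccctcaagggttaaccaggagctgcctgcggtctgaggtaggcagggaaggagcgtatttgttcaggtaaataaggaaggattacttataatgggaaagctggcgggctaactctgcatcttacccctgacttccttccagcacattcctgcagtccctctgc

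The forkhead motif TGTTTNC, of the family of Foxa1 and Foxa2, was in the windows of Muc2, at 108 bases before the start, of Muc13, at 166, and of Agr2, at 87. It was in 20.5% of all 32851 promoters. The CDX motif TTTATG was in Muc13, Agr2 and Spdef and in 11.9% of all promoters. A TGACGTG motif, of the kind bound by CREB3L and XBP1 factors, was in Spdef, 201 bases before the start, and in 2.01% of all promoters. A TATAAA box (13.6% of promoters) and a GGGCGG box (35.7%) were found only in Muc2 among the 5 genes, and CCGGAA (14.9%) and the SPDEF-type CCGGAT (6.04%) in none. No 2 of these motifs overlapped at the matches shown. The window of Fcgbp and that of the other start of Muc13 held none of the 7 motifs. Thus the forkhead and CDX letters stood before genes that were higher at 7 weeks and before genes that were lower.

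The libraries held between 14.9 and 42.6 M counts, with M for mega. Library 5 of the 2-week control pups stood apart, with the lowest total and 29.4% of its counts from mitochondrial genes, against 3.99 to 9.15% in the other 19 libraries. Its mean log2 CPM over 8 genes found in all epithelial cells was 7.65, against 8.5 to 9.64 elsewhere, and results that rest on it are given without it. CPM are counts per M counts after scaling by the trimmed mean of M values (TMM). Library 5 of the 7-week periodontitis pups also differed from its group, with a Paneth cell marker mean of 6.58 where the group median was 4.71. Genes of the stomach and of Brunner's glands, 6 in all, summed to 0.434 to 2.62 CPM in 7-week periodontitis pups and 0.328 to 1.25 CPM in 7-week control pups. At 2 weeks they summed to 74.5 to 1820 CPM in periodontitis pups and 902 to 1690 CPM in control pups. Fabp6, which carries bile acids in ileal enterocytes, had 0 counts in 7-week periodontitis pups and at most 0.724 CPM in 7-week control pups, against 2.92 to 365 CPM and 197 to 510 CPM in periodontitis and control pups at 2 weeks. With Fabp6, 6 distal intestine genes summed to 258 to 421 and 266 to 373 CPM in 7-week periodontitis and control pups. At 2 weeks they summed to 310 to 962 and 650 to 1050 CPM. Of these 6, 1 rose and 3 fell with age in periodontitis pups, and 0 rose and 4 fell in control pups. Of 7 proximal intestine genes, 4 rose and 2 fell in each kind of pup. Over all tested genes 30.4% rose and 35.7% fell in periodontitis pups, and 27.1% rose and 34.4% fell in control pups. Of 7 genes of the colon, Car1 had 0 counts in 3 groups and 3 counts in 2-week control pups, and Prdx6b had 0 counts in all. The 7 summed to 118 to 252 CPM in 7-week periodontitis pups and 142 to 216 CPM in 7-week control pups, against 28.6 to 75 CPM and 17.3 to 51 CPM at 2 weeks, most of it from Car4 and Aqp8. The stretch of gut in the samples therefore differed in its markers between the ages and cannot be told apart from age, and fewer cells of a type and less RNA per cell cannot be told apart in bulk tissue.

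Together the 10 genes held 0.805 to 1.32% of all counts in 7-week periodontitis pups, 1.01 to 1.17% in 7-week control pups, 0.471 to 0.792% in 2-week periodontitis pups and 0.428 to 0.868% in 2-week control pups. Levels of different genes are compared per kilobase of annotated exon, which depends on the gene model used. At 7 weeks the lectin gene Zg16 was at 2660 ± 556 CPM per kb in periodontitis pups and 2840 ± 511 in control pups (SD, n = 5 each). Tff3 followed at 1940 ± 374 and 2160 ± 340 CPM per kb in periodontitis and control pups, and Muc13 at 1350 ± 470 and 1410 ± 89.4. Then came a step down to Fcgbp, at 293 ± 58.1 and 321 ± 64.5 CPM per kb, Clca1, at 237 ± 55.8 and 288 ± 34.9, and Spink4, at 209 ± 30.4 and 188 ± 34.1, in periodontitis and control pups. Muc2 was at 79 ± 15.5 and 77.7 ± 21.5 CPM per kb and Agr2 at 78.1 ± 26.2 and 80.8 ± 10.8, so these 2 did not differ beyond their spread. Spdef, which codes for a transcription factor, was at 3.93 ± 0.727 and 3.96 ± 0.691 CPM per kb. In both kinds of pup the mean ± SD ranges of Zg16 and Tff3, and of Fcgbp and Clca1, overlapped as well, and no test was run between genes.

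At 2 weeks the order was different. Tff3 led at 849 ± 205 CPM per kb in periodontitis pups and 857 ± 384 in control pups (SD, n = 5 each). In periodontitis pups Muc13 came next at 483 ± 32.3 and Zg16 after it at 361 ± 268, while in control pups Zg16 came next at 734 ± 103 and Muc13 after it at 492 ± 43.5. Spink4, at 220 ± 62.5 and 377 ± 217 CPM per kb in periodontitis and control pups, stood above Fcgbp, at 129 ± 35.9 and 130 ± 53. Clca1 and Agr2 were level, at 146 ± 59.1 and 143 ± 35.5 CPM per kb in periodontitis pups and at 182 ± 40.7 and 183 ± 34.3 in control pups. Muc2 was at 33.7 ± 11.3 and 37.1 ± 14.6 CPM per kb and Spdef at 8.28 ± 1.62 and 8.28 ± 4.04.

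**Figure D1:**
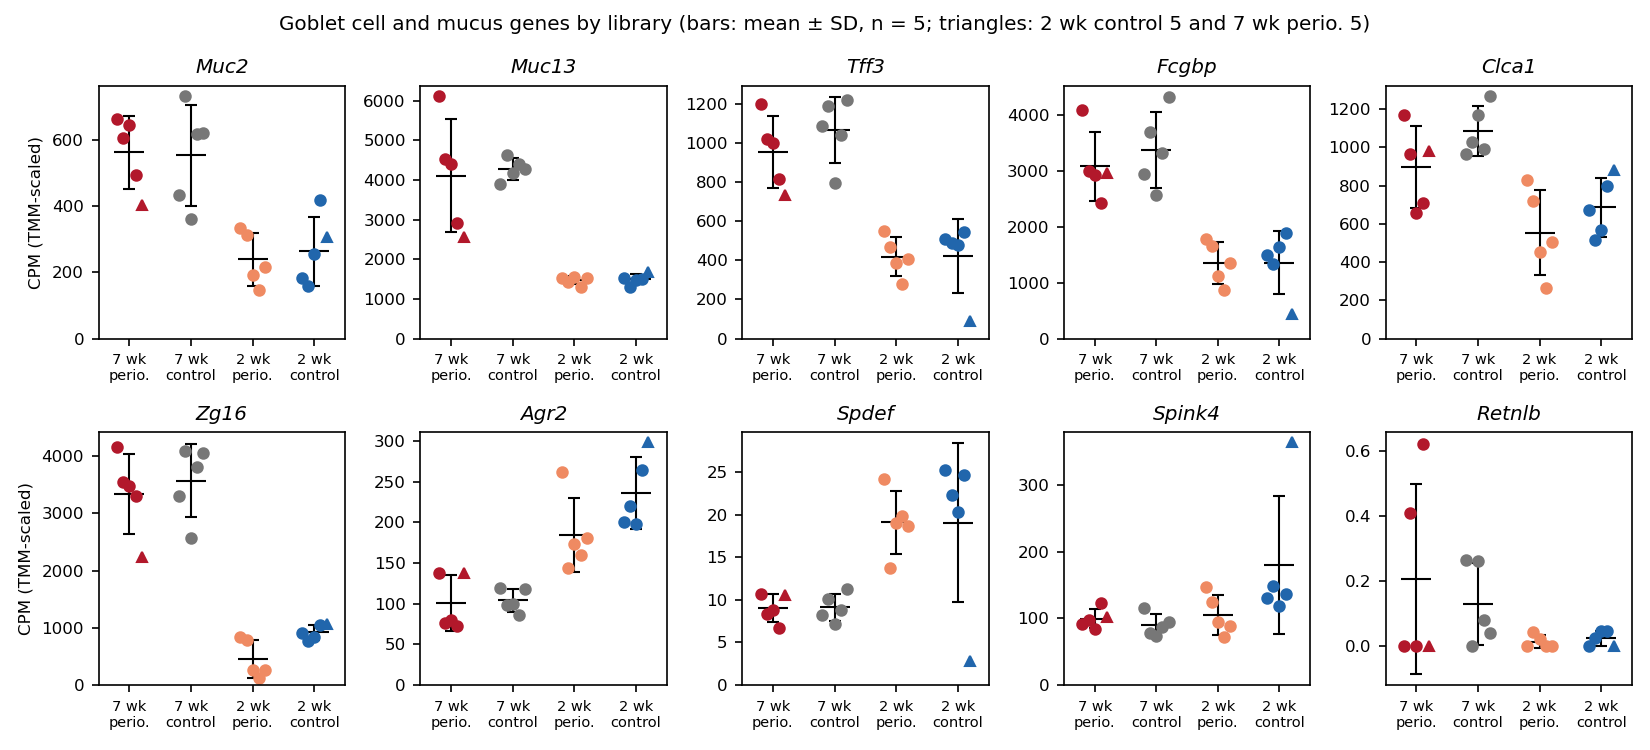
TMM-scaled CPM (vertical axes, linear) of each gene in every library, with 1 point per library and the mean and SD of 5 libraries per group. Muc2, Muc13, Tff3, Fcgbp, Clca1 and Zg16 stood higher at 7 weeks, Agr2 and Spdef stood lower, and 2-week control library 5 lay low for Tff3 at 87.2 CPM and high for Spink4 at 364 CPM.

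Muc2, Zg16, Tff3, Fcgbp, Clca1 and Muc13 were higher at 7 than at 2 weeks, while Agr2 and Spdef were lower. In periodontitis pups 8 of the 9 tested genes changed, 6 rising and 2 falling, where 66.1% of all 17464 tested genes changed (30.4% rose and 35.7% fell). In control pups all 9 changed, 6 rising and 3 falling, where 61.5% of all genes changed (27.1% rose and 34.4% fell). DESeq2 and limma-voom gave the same counts of 8 and 9, where they called 68.5% and 81% of all genes in periodontitis pups and 63.8% and 80.5% in control pups. A count this high is thus common at this contrast, and the direction and size of each gene are given below. The median log2 fold change of the 9 genes was 1.19 in periodontitis pups and 1.07 in control pups, where that of all genes was -0.11 and -0.13.

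Muc2 (ENSMUSG00000025515, GRCm38 chromosome 7, 141690340 to 141754693) codes for the gel-forming mucin of the intestine. It had 663, 607, 647, 495 and 405 CPM in 7-week periodontitis pups and 433, 735, 361, 620 and 622 CPM in 7-week control pups. At 2 weeks it had 334, 314, 191, 148 and 215 CPM in periodontitis pups and 183, 158, 256, 418 and 307 CPM in control pups. The ages did not overlap in periodontitis pups, and in control pups 2-week library 4 lay above 7-week library 3. Muc2 rose with age by a log2 fold change of 1.23 ± 0.28 in periodontitis pups (SE, n = 5 per group, edgeR adjusted p = 0.000663) and 1.07 ± 0.27 in control pups (edgeR adjusted p = 0.00235).

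Zg16 (ENSMUSG00000049350, chromosome 7, 127050156 to 127087328) codes for a goblet cell lectin that binds the wall of Gram-positive bacteria, and it had the largest age difference of the 9. It stood at 4150, 3540, 3470, 3310 and 2230 CPM in 7-week periodontitis pups and at 3310, 4090, 2570, 3810 and 4060 CPM in 7-week control pups. In 2-week periodontitis pups it stood at 844, 790, 259, 121 and 258 CPM, and in 2-week control pups at 903, 771, 831, 1040 and 1070 CPM. Every 7-week library lay above every 2-week library. Zg16 rose by 2.88 ± 0.39 in periodontitis pups (7.36-fold, SE, n = 5 per group, edgeR adjusted p = 4.29e-06) and by 1.95 ± 0.38 in control pups (3.87-fold, adjusted p = 0.000225).

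Tff3 (ENSMUSG00000024029, chromosome 17, 31125306 to 31129646) codes for a trefoil peptide secreted with mucin. It had 735 to 1200 CPM in 7-week periodontitis pups and 794 to 1220 CPM in 7-week control pups, against 280 to 552 CPM and 87.2 to 546 CPM at 2 weeks. It rose by 1.19 ± 0.32 in periodontitis pups (SE, n = 5 per group, edgeR adjusted p = 0.00314) and 1.33 ± 0.32 in control pups (adjusted p = 0.0015). Fcgbp (ENSMUSG00000047730, chromosome 7, 28071236 to 28120862) codes for a large protein of the mucus that is bound to Muc2. Its levels were 2420 to 4090 CPM in 7-week periodontitis pups and 2570 to 4320 CPM in 7-week control pups, against 863 to 1780 CPM and 430 to 1880 CPM at 2 weeks. It rose by 1.19 ± 0.29 (adjusted p = 0.00155 in edgeR) and 1.31 ± 0.29 (adjusted p = 0.000805) in periodontitis and control pups. For both genes the ages did not overlap.

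Clca1 (ENSMUSG00000028255, chromosome 3, 145003817 to 145032776) codes for a secreted protease that acts on the mucus. It had 1170, 967, 656, 709 and 982 CPM in 7-week periodontitis pups and 963 to 1270 CPM in 7-week control pups. In 2-week periodontitis pups it had 828, 718, 453, 264 and 503 CPM and in 2-week control pups 513 to 882 CPM. The ages did not overlap in control pups and did in periodontitis pups. Its rise was the smallest of the 6, at 0.7 ± 0.25 in periodontitis pups (SE, n = 5 per group, edgeR adjusted p = 0.0183) and 0.66 ± 0.25 in control pups (adjusted p = 0.0254). The call was lost without periodontitis library 1 at 7 weeks (0.58, adjusted p = 0.0569) and, in control pups, without 2-week library 2 (0.58, adjusted p = 0.0673), 2-week library 3 (0.6, adjusted p = 0.0597) or 7-week library 5 (0.6, adjusted p = 0.0589).

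Muc13 (ENSMUSG00000022824, chromosome 16, 33794037 to 33819934) codes for a mucin anchored in the membrane of enterocytes as well as goblet cells. It stood at 6130, 4530, 4400, 2920 and 2570 CPM in 7-week periodontitis pups and at 3890 to 4630 CPM in 7-week control pups. At 2 weeks it was even, at 1310 to 1540 CPM in periodontitis pups and 1310 to 1680 CPM in control pups. No 7-week library overlapped the 2-week libraries. The rise was 1.49 ± 0.19 in periodontitis pups (SE, n = 5 per group, edgeR adjusted p = 2.11e-06) and 1.51 ± 0.19 in control pups (adjusted p = 2.96e-06). The coefficient of variation of Muc13 was 34.7% in 7-week periodontitis pups and 6.36% in 7-week control pups, and no test of that difference was made. A gene on the other strand, Gm15657, overlaps Muc13 and had 984 counts over all libraries.

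Agr2 (ENSMUSG00000020581, chromosome 12, 35992907 to 36004087) codes for a disulfide isomerase of the endoplasmic reticulum that the production of Muc2 needs. It went the other way, at 138, 76.5, 79.7, 72.5 and 138 CPM in 7-week periodontitis pups and 119, 97.9, 100, 86.5 and 118 CPM in 7-week control pups. It had 262, 144, 174, 160 and 181 CPM in 2-week periodontitis pups and 200, 220, 198, 265 and 299 CPM in 2-week control pups. The ages did not overlap in either kind of pup. Agr2 fell by 0.87 ± 0.21 on the log2 scale in periodontitis pups (SE, n = 5 per group, edgeR adjusted p = 0.00118) and by 1.18 ± 0.21 in control pups (adjusted p = 9.35e-05).

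Spdef (ENSMUSG00000024215, chromosome 17, 27714352 to 27728955) codes for an ETS factor that drives the maturation of goblet cells. It had 10.7, 8.39, 8.83, 6.73 and 10.6 CPM in 7-week periodontitis pups and 8.19, 10.1, 7.22, 8.84 and 11.3 CPM in 7-week control pups. In 2-week periodontitis pups it had 24.2, 13.7, 19, 19.9 and 18.7 CPM, and in 2-week control pups 25.3, 22.3, 20.3, 24.7 and 2.82 CPM. Apart from the last library, which is the one that stood apart, every 2-week library lay above every 7-week library. Spdef fell by 1.07 ± 0.34 in periodontitis pups (SE, n = 5 per group, edgeR adjusted p = 0.00991) and by 1.07 ± 0.34 in control pups (adjusted p = 0.0105). In control pups the difference was -1.35 (adjusted p = 1.53e-06) without 2-week library 5.

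Spink4 (ENSMUSG00000028415, chromosome 4, 40920052 to 40931395) codes for a small secreted protein of a family of protease inhibitors and is a goblet cell marker. It had 91.3, 97.6, 84.7, 123 and 102 CPM in 7-week periodontitis pups and 115, 78.5, 74.2, 86.6 and 95 CPM in 7-week control pups. At 2 weeks it had 147, 124, 94, 72.1 and 88.2 CPM in periodontitis pups and 130, 148, 119, 137 and 364 CPM in control pups. Only the control pups were without overlap between the ages. In periodontitis pups Spink4 differed by -0.07 ± 0.26 and was not called (SE, n = 5 per group, edgeR adjusted p = 0.816, 95% interval from -0.63 to 0.48). In control pups it fell by 1 ± 0.27 (adjusted p = 0.00304), and by 0.58 without 2-week library 5 (adjusted p = 0.00656). The test of the difference between these 2 age effects is the last comparison below.

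Retnlb (ENSMUSG00000022650, chromosome 16, 48816856 to 48818892) codes for a bactericidal protein that goblet cells, mostly of the colon, secrete on exposure to bacteria or type 2 cytokines. It had 0, 8, 0, 10 and 0 counts in 7-week periodontitis pups and 8, 0, 8, 2 and 1 counts in 7-week control pups. At 2 weeks it had 0, 2, 1, 0 and 0 counts in periodontitis pups and 0, 1, 2, 2 and 0 in control pups. All 4 groups held libraries with no counts, and the gene was too low to be tested. No group was at 0: the sums were 18 and 19 counts in periodontitis and control pups at 7 weeks, and 3 and 5 counts at 2 weeks. A floor of 3 counts over a group, as would apply to a group at 0, corresponds to 0.0241 CPM in 7-week periodontitis pups and 0.0228 in 7-week control pups. At 2 weeks it corresponds to 0.0119 CPM in periodontitis pups and 0.0152 in control pups.

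**Figure D2:**
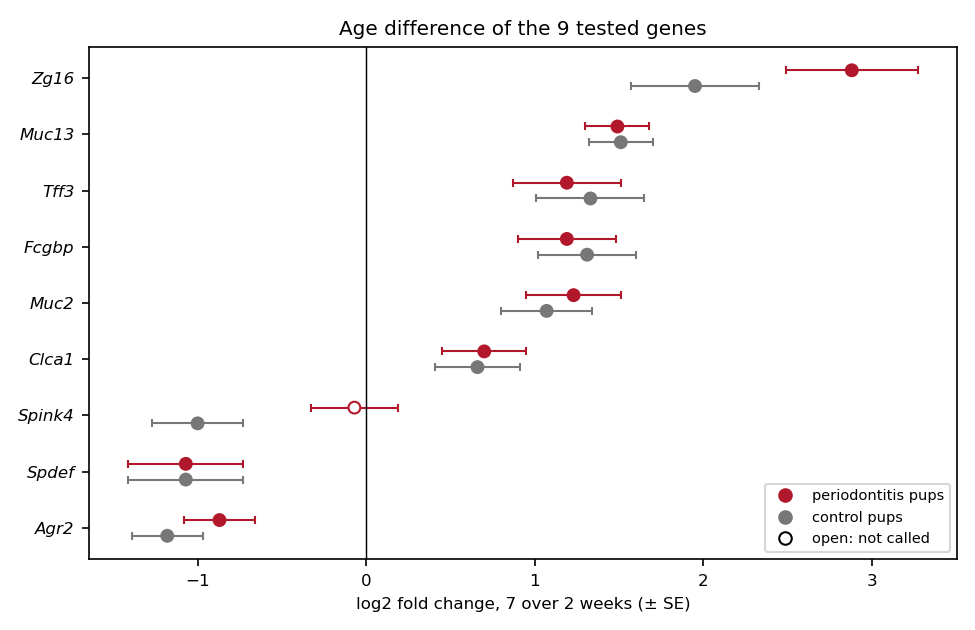
Log2 fold change of 7 over 2 weeks (horizontal axis, ± SE, n = 5 per group) for the 9 tested genes in periodontitis and control pups, with filled points for an edgeR adjusted p under 0.05. Zg16, Muc13, Tff3, Fcgbp, Muc2 and Clca1 lie above 0 in both kinds of pup, Spdef and Agr2 below, and Spink4 is open at -0.07 in periodontitis pups.

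In periodontitis pups, 5 of the 9 genes lay higher in every 7-week library than in every 2-week library (24.9% of all genes did) and 2 lower (28.3%). In control pups 5 were higher in every library (22.5% of all genes) and 2 lower (23.2%). The epithelium as a whole also moved with age: of the 8 pan-epithelial genes, among them Epcam and Cdh1, 6 rose and 1 fell in periodontitis pups and 6 rose and 2 fell in control pups, with medians of 1.08 and 0.97. Of 6 smooth muscle genes, 5 fell in each kind of pup, with medians of -1.2 and -1.15. Over all genes 30.4% rose and 35.7% fell in periodontitis pups, and 27.1% rose and 34.4% fell in control pups. When libraries were scaled to equal pan-epithelial levels, an alternative chosen after the data were seen, the median of all genes was -0.84 in periodontitis pups and -1.01 in control pups.

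On the scale of epithelial genes themselves the rises were smaller, and 6 of the 9 genes were called in each kind of pup. Muc2 then differed by 0.52 in periodontitis pups (edgeR adjusted p = 0.168) and by 0.1 in control pups (adjusted p = 0.792). Clca1 differed by 0.01 (adjusted p = 0.974) and -0.34 (adjusted p = 0.365) in periodontitis and control pups, and Muc13 by 0.72 (adjusted p = 0.0313) and 0.55 (adjusted p = 0.0871). Library 5 of the 2-week control pups, low in epithelial genes, weighed on these values. Without it Muc2 differed by 0.52 (adjusted p = 0.0292) and 0.62 (adjusted p = 0.019), Muc13 by 0.72 (adjusted p = 0.000137) and 1.04 (adjusted p = 1.31e-05) and Clca1 by 0.01 (adjusted p = 0.95) and 0.26 (adjusted p = 0.238). Zg16 rose on this scale, by 2.23 (adjusted p = 5.62e-06) and 1.49 (adjusted p = 0.000777), and Tff3 and Fcgbp also rose, by 0.47 and 0.48 in periodontitis pups and by 0.56 each in control pups. Agr2 fell by 1.58 in both kinds of pup, Spdef by 1.8 in periodontitis pups and 1.86 in control pups. Spink4 fell by 0.76 in periodontitis pups (adjusted p = 0.000294) and 1.08 in control pups (adjusted p = 2.39e-05), and its age difference in periodontitis pups was called under no other alternative run. Without that library Clca1 was the 1 gene of the 9 whose call was lost in both kinds of pup.

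The other genes of the goblet cell program did not follow 1 direction with age. Of 11 transcription regulators, 3 rose and 3 fell in periodontitis pups, and 3 rose and 5 fell in control pups. Over all genes 30.4% rose and 35.7% fell in periodontitis pups, and 27.1% rose and 34.4% fell in control pups. The counts of regulators were near these shares, which also stand beside the counts of the lists that follow. The medians of the regulators were -0.08 and -0.09, where those of all genes were -0.11 and -0.13. Creb3l1, a factor of goblet cell maturation, fell by 1.79 ± 0.17 in each kind of pup (SE, n = 5 per group, edgeR adjusted p = 8.85e-08 and 1.7e-07 in periodontitis and control pups). It averaged 7.67 ± 1.28 CPM in 7-week periodontitis pups and 7.41 ± 0.6 CPM in 7-week control pups, against 26.5 ± 6.23 and 25.6 ± 5.35 CPM at 2 weeks (SD). The related Creb3l4 fell by 1.67 ± 0.28 and 1.58 ± 0.28, and the forkhead factor Foxa1, which acts on Muc2, by 1.33 ± 0.26 and 1.67 ± 0.26, in periodontitis and control pups. Klf4, a factor of terminal goblet cell differentiation in the colon, rose by 2.27 ± 0.28 and 1.65 ± 0.28, to 617 ± 239 CPM in 7-week periodontitis pups and 590 ± 138 CPM in 7-week control pups. Atoh1, the factor that commits cells to the secretory lineage, differed by 0.22 ± 0.22 and 0.01 ± 0.22 and was not called. Thus the named factors that fell and Klf4, which was 1 of 3 regulators that rose, are all tied to goblet cells. Atoh1, at the head of the lineage, passed no test.

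Among genes that attach sugars to mucins or help fold them, 16 of 17 were tested, of which 7 rose and 6 fell in periodontitis pups and 3 rose and 4 fell in control pups. C1galt1, which makes the core 1 sugar chain, rose by 1.1 ± 0.17 in periodontitis pups and 0.81 ± 0.17 in control pups (SE, n = 5 per group, edgeR adjusted p = 1.29e-05 and 0.00032), which the epithelial scaling turned to -0.15 in control pups (adjusted p = 0.647). Galnt12, which starts such chains, fell by 1.34 ± 0.21 and 1.37 ± 0.21. Ern2, a stress sensor of the endoplasmic reticulum in mucous cells, fell by 1.31 ± 0.26 in control pups, and so did the isomerase gene Pdia5, by 0.91 ± 0.2. B3gnt6, which makes core 3 chains, rose by 2.97 ± 0.55 in periodontitis pups, at 1.23 ± 0.634 CPM at 7 weeks against 0.154 ± 0.0743 CPM at 2 weeks (SD), and Galnt7 rose by 0.99 ± 0.19. Here and below, a gene given for 1 kind of pup was outside the genes named in the other, at most 4 per list. That is no test of a difference between the kinds of pup.

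Of 17 other goblet cell markers, 3 rose and 5 fell in periodontitis pups, and 2 rose and 6 fell in control pups. Guca2a, the gut hormone guanylin, fell by 2.8 ± 0.2 in periodontitis pups and 2.59 ± 0.19 in control pups (SE, n = 5 per group, edgeR adjusted p = 2.33e-09 and 7.36e-09). Bace2, a membrane protease, fell by 1.15 ± 0.23 and 0.92 ± 0.23, and Smim6 rose by 1.14 ± 0.28 and 1.16 ± 0.29. The chemokine Ccl9 fell by 1.21 ± 0.3 in control pups, and Scin, an actin-severing protein, rose by 1.53 ± 0.26 in periodontitis pups.

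Mucins of the stomach were almost absent at 7 weeks. Of 7 other mucins tested, 1 rose and 4 fell in each kind of pup. Muc6, the gel-forming mucin of the stomach and Brunner's glands, averaged 1.23 ± 0.87 CPM in 7-week periodontitis pups and 0.829 ± 0.306 CPM in 7-week control pups, against 295 ± 194 and 364 ± 236 CPM at 2 weeks (SD, n = 5 each). Muc5ac, the surface mucin of the stomach, had 0 counts in both 7-week groups, against 275 counts in 2-week periodontitis pups and 76 counts in 2-week control pups. Tff2, the trefoil peptide secreted with Muc6, had 3 and 0 counts in periodontitis and control pups at 7 weeks, against 138386 and 142637 counts at 2 weeks. Tff1, that of the stomach surface, had 0 and 1 counts, against 30596 and 11445. Muc6 fell by 7.96 ± 0.8 in periodontitis pups and fell by 8.79 ± 0.83 in control pups (SE, n = 5 per group, edgeR adjusted p = 1.19e-07 and 1.08e-07). Both stomach trefoil genes were thus close to absent from the 7-week libraries, in which Tff3 of the intestine was high. The membrane mucin Muc1 fell by 6.37 ± 0.79 in periodontitis pups and 5.63 ± 0.75 in control pups (SE, n = 5 per group, edgeR adjusted p = 1.47e-06 and 4.95e-06), Muc20 fell by 2.81 ± 0.72 in control pups, and Muc3 rose by 3.64 ± 0.57 and 1.72 ± 0.53. Muc3 and Muc3a are close relatives whose reads may be divided between them by the counting, so the value of Muc3 is uncertain.

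Of 12 relatives of the goblet genes, Tff1 and Tff2 among them, 3 rose and 4 fell in periodontitis pups, and 1 rose and 7 fell in control pups. The relative of Fcgbp, 9530053A07Rik, averaged 0.0833 ± 0.0431 CPM in 7-week periodontitis pups and 0.07 ± 0.0515 CPM in 7-week control pups, against 8.18 ± 2.75 and 2.45 ± 1 CPM at 2 weeks (SD, n = 5 each). It fell by 6.6 ± 0.46 in periodontitis pups and fell by 4.99 ± 0.45 in control pups (SE, edgeR adjusted p = 2.33e-09 and 7.18e-08), opposite to Fcgbp. Retnlg, a relative of Retnlb, fell by 4.53 ± 0.5 and 3.68 ± 0.47 (adjusted p = 3.85e-07 and 3.31e-06).

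Genes that process mucus and the ions around it were split too, with 3 rising and 1 falling of 5 tested in periodontitis pups and 2 rising and 2 falling in control pups. The protease meprin beta (Mep1b), which frees Muc2 mucus in the mouse small intestine, rose by 1.69 ± 0.24 in periodontitis pups and 1.07 ± 0.23 in control pups (SE, n = 5 per group, edgeR adjusted p = 5.43e-06 and 0.000594). Meprin alpha (Mep1a) fell by 2.08 ± 0.2 and 1.67 ± 0.2. The chloride and bicarbonate channel Cftr, which lets secreted mucin unfold, fell by 1.17 ± 0.15 in control pups, and the exchanger Slc26a3 rose by 1.49 ± 0.21 and 0.78 ± 0.21 in periodontitis and control pups, but was at -0.28 in control pups with epithelial scaling. Nlrp6, an inflammasome gene, differed by 0.57 ± 0.24 in periodontitis pups (adjusted p = 0.0464), a call lost in 16 of 20 fits that left out 1 library (adjusted p up to 0.152), and stood at -0.16 with epithelial scaling.

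Of a list of signals linked to goblet cells, those of type 2 cytokines and interleukins 18 and 22, 6 of 10 genes were tested. The listed signals need not act on goblet cells in 1 direction. In periodontitis pups 4 rose and 0 fell, where 30.4% of all genes rose and 35.7% fell, and in control pups 3 rose and 0 fell, where 27.1% rose and 34.4% fell. The cytokine Il18 rose by 3.37 ± 0.35 in periodontitis pups and 2.25 ± 0.33 in control pups (SE, n = 5 per group, edgeR adjusted p = 1.73e-07 and 1.59e-05), the interleukin 13 receptor chain Il13ra1 by 2.23 ± 0.19 and 1.77 ± 0.19, and the signalling factor Stat6 by 0.72 ± 0.13 and 0.76 ± 0.13. With epithelial scaling Stat6 was at -0.01 and -0.13 and not called. Il33, an alarmin, rose by 1.09 ± 0.28 in periodontitis pups.

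**Figure D3:**
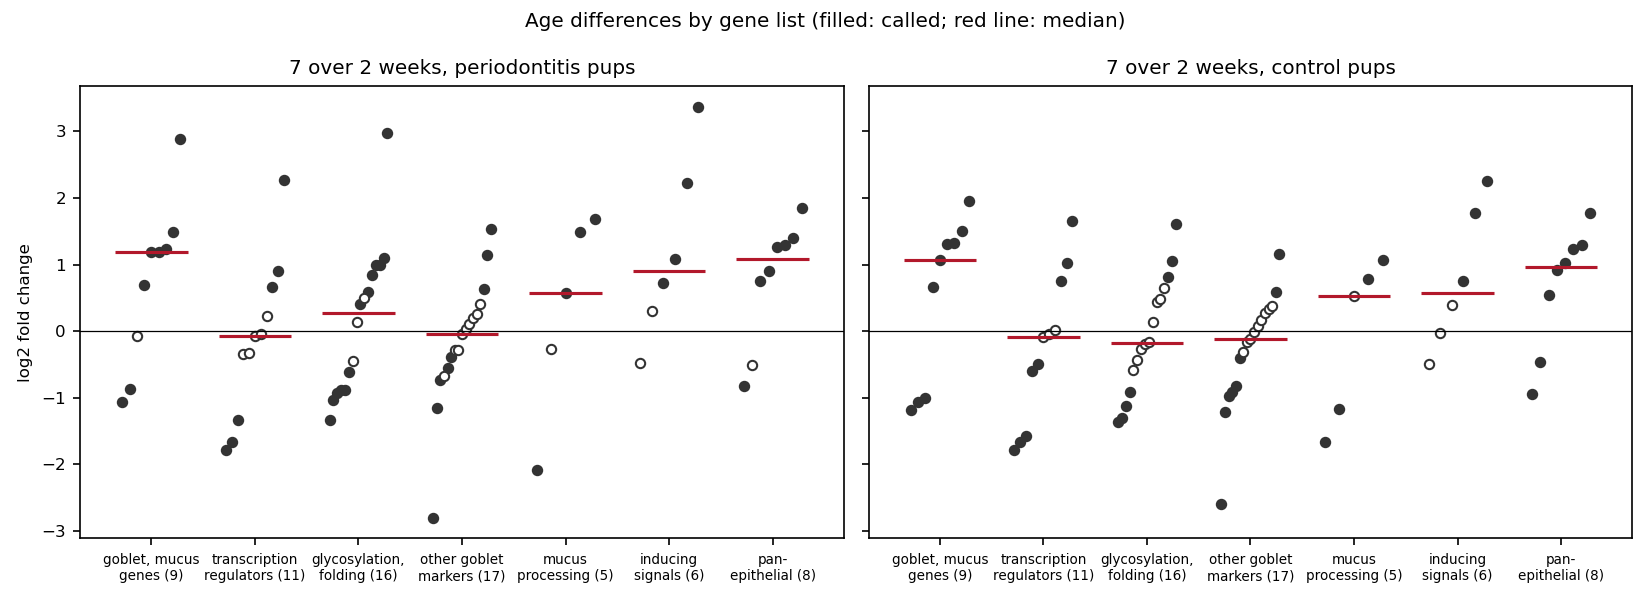
Log2 fold change of 7 over 2 weeks (vertical axis) of each tested gene in 7 lists, in periodontitis pups (left) and control pups (right), with filled points called by edgeR and a red line at the median of each list. The median of the 9 goblet and mucus genes was 1.19 in periodontitis pups and 1.07 in control pups, that of the transcription regulators -0.08 and -0.09.

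Between periodontitis and control pups, none of the 9 genes was called at either age. At 7 weeks edgeR called 0 of 9, where it called 0.0115% of all genes, and 0 of 9 had an unadjusted p under 0.05, where 3.33% of all genes had. DESeq2 and limma-voom also called 0 of 9, where they called 0.143% and 0.0458% of all genes. The log2 fold changes of periodontitis over control pups ran from -0.28 ± 0.25 for Clca1 (SE, n = 5 per group, 95% interval from -0.8 to 0.24) to 0.15 ± 0.26 for Spink4 (from -0.41 to 0.71). Muc2 averaged 563 ± 110 CPM in periodontitis pups and 554 ± 153 CPM in control pups (SD), a log2 fold change of 0.02 with an interval from -0.55 to 0.6. Agr2 had the interval from -0.49 to 0.39 and Muc13 from -0.45 to 0.34. Differences of 2-fold either way lie outside these intervals, and smaller ones were not resolved with 5 libraries a group.

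At 2 weeks edgeR called 0 of 9 genes and 0.0286% of all genes. DESeq2 also called 0 of 9 (3.43% of all genes), and limma-voom with sample weights called 4 lower (Zg16, Spink4, Tff3 and Spdef), where it called 29.8% of all genes. At an unadjusted p under 0.05 there were 2 of the 9, Zg16 and Spink4, both lower in periodontitis pups, where 14.4% of all genes passed and 9.07% were lower. All 9 log2 fold changes were below 0, with a median of -0.14, where 47.3% of all genes were below 0. That sign is weak for several: Tff3, Fcgbp and Spdef were each at -0.01 (SE from 0.29 to 0.34), and Muc13 at -0.03 ± 0.19. With epithelial scaling Tff3 was at 0.14, Fcgbp at 0.1 and Spdef at 0.2. These values include 2-week control library 5, which was low in epithelial genes. Without it Tff3, Fcgbp and Spdef differed by -0.28, -0.23 and -0.28 under TMM scaling. Muc2 differed by -0.14 ± 0.27 (95% interval from -0.71 to 0.44), Clca1 by -0.31 ± 0.25 and Agr2 by -0.36 ± 0.21.

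Zg16 had the largest difference, -1.02 ± 0.37 (95% interval from -1.81 to -0.23, edgeR adjusted p = 0.209), with 454 ± 336 CPM in periodontitis pups and 922 ± 129 CPM in control pups (SD, n = 5 each). The periodontitis libraries were widely spread: libraries 1 and 2, at 844 and 790 CPM, lay among the control libraries at 771 to 1070 CPM, and libraries 3, 4 and 5 lay below all of them, at 259, 121 and 258 CPM. Leaving out 1 library at a time gave -1.37 (without periodontitis library 1) to -0.78 (without periodontitis library 4), with adjusted p from 0.0782 to 0.493. The same 3 libraries stood apart in other epithelial lists, in either direction. The mean log2 CPM of 6 genes of the weaned enterocyte, among them Sis and Mgam, was 8.14, 8.4, 6.54, 5.65 and 6.16 in periodontitis libraries 1 to 5, against 8.44 to 8.85 in the control libraries. The 8 Paneth cell genes summed to 1610, 1640, 722, 420 and 605 CPM, against 1430 to 1760 CPM, with none of them at 0 in either group. Fabp6 stood at 365, 328, 17.5, 2.92 and 8.07 CPM, against 197 to 510 CPM. The mean log2 CPM of 8 genes of the suckling enterocyte, among them Lrp2 and Fcgrt, was higher in these libraries, at 7.67, 7.33, 7.98, 8 and 8.01 in periodontitis libraries 1 to 5, against 5.9 to 7.28 in the control libraries. The mean of 7 proximal intestine genes was 7.29, 7.47, 6.15, 5.43 and 6.01, against 7.07 to 7.76. Fabp6 and the proximal list were thus both low in libraries 3 to 5. The pan-epithelial mean was 9.02, 8.85, 8.7, 8.5 and 8.69, against 7.65 in control library 5 and 8.94 to 9.15 in the other control libraries. The smooth muscle mean was 7.24, 8.17, 8.32, 8.95 and 8.71, against 7.68 to 8.37. The part of enterocyte maturity, Paneth cells, tissue makeup or gut segment in the level of Zg16 was not tested. Muc2, Clca1, Fcgbp, Tff3 and Spink4 were likewise higher in periodontitis libraries 1 and 2 than in libraries 3 to 5, without overlap. That split was read from the values of Zg16, and the share of all genes divided in the same way was not counted. The division is thus not shown to be particular to these genes. Clca1 had 828 and 718 CPM in libraries 1 and 2 and 453, 264 and 503 CPM in libraries 3 to 5, and Fcgbp 1780 and 1660 CPM and 1120, 863 and 1350 CPM. Tff3 had 552 and 469 CPM in libraries 1 and 2 and 385, 280 and 408 CPM in libraries 3 to 5. Agr2, Spdef and Muc13 were not divided in this way, with Muc13 at 1530 and 1420 CPM and at 1540, 1310 and 1530 CPM.

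Spink4 differed by -0.78 ± 0.26 at 2 weeks (SE, n = 5 per group, edgeR adjusted p = 0.179), with 105 ± 29.8 CPM in periodontitis pups and 180 ± 103 CPM in control pups (SD). Control library 5, at 364 CPM, set much of this, and without it the difference was -0.35 (adjusted p = 0.434). That library was also at 2.82 CPM for Spdef and 87.2 CPM for Tff3, where the other 4 control libraries were at 20.3 to 25.3 and 479 to 546 CPM. Without it, Spdef, Tff3 and Fcgbp differed by -0.28, -0.28 and -0.23 in place of -0.01, and Zg16 by -0.96 (adjusted p = 0.291).

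**Figure D4:**
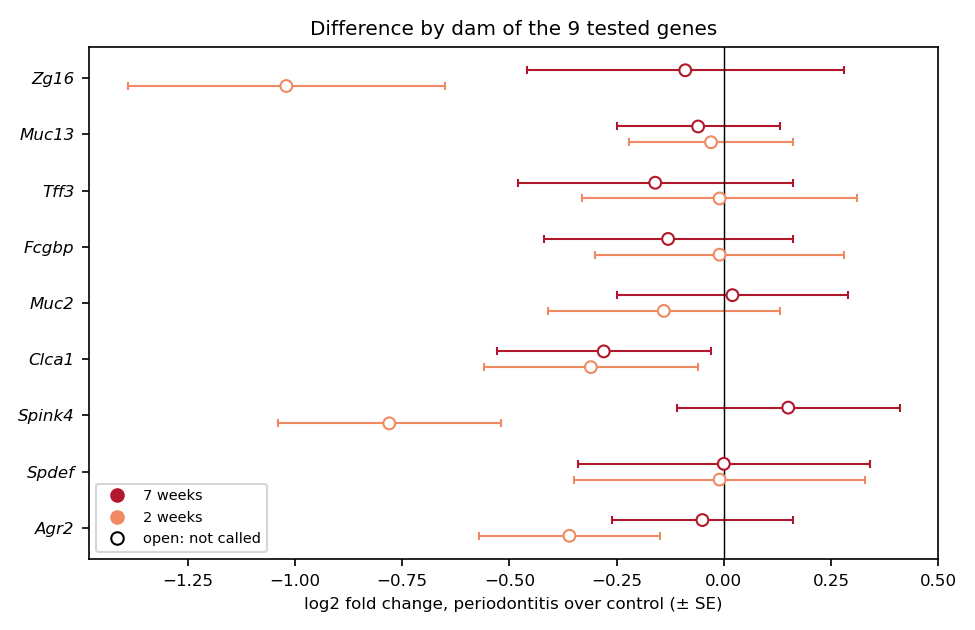
Log2 fold change of periodontitis over control pups (horizontal axis, ± SE, n = 5 per group) for the 9 tested genes at 7 and 2 weeks, with open points where the edgeR adjusted p was not under 0.05. All points are open, and Zg16 and Spink4 at 2 weeks lie farthest from 0, at -1.02 and -0.78.

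**Figure D5:**
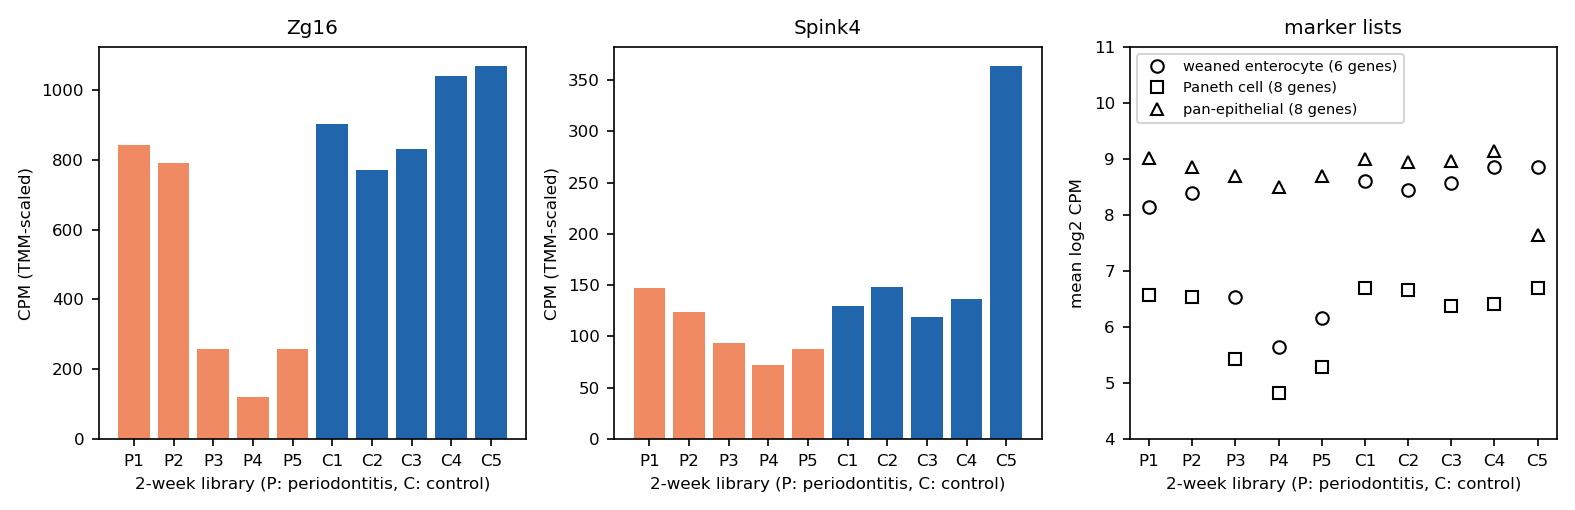
Zg16 and Spink4 in CPM (left and middle, bars from 0) and the mean log2 CPM of 3 marker lists (right) in each of the 10 libraries of 2 weeks, periodontitis libraries P1 to P5 and control libraries C1 to C5. Periodontitis libraries 3 to 5 are low for Zg16 and for the weaned enterocyte and Paneth cell lists, and control library 5 is high for Spink4 and low for the pan-epithelial list at 7.65.

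The difference of the dam comparison between 7 and 2 weeks, which is also the difference of the age effect between periodontitis and control pups, was called for 0 of the 9 genes and 0.0229% of all genes in edgeR. DESeq2 called 0 of the 9 (0.372% of all genes) and limma-voom called 1, Zg16 (6.77% of all genes). At an unadjusted p under 0.05 there was 1 of 9, Spink4, where 8.8% of all genes passed. Spink4 differed by 0.93 ± 0.37 (SE, edgeR adjusted p = 0.526) and by 0.5 without 2-week control library 5, and Zg16 by 0.93 ± 0.52 (95% interval from -0.18 to 2.03, adjusted p = 0.608). The others ran from -0.14 for Tff3 to 0.31 for Agr2. That Spink4 was called for age in control pups and not in periodontitis pups is therefore not shown to be a difference between them.

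In the 7 lists of other goblet and mucus genes edgeR called 0 genes between dams at either age. At 2 weeks 1 of 11 regulators, 5 of 16 sugar and folding genes, 3 of 17 markers, 1 of 7 mucins, 4 of 5 mucus processing genes, 3 of 6 signals and 7 of 12 relatives of the goblet genes had an unadjusted p under 0.05, where 14.4% of all genes had. Nearest at 2 weeks were Scin at -1.22 ± 0.25, Il33 at -1.33 ± 0.28 and 9530053A07Rik, a relative of Fcgbp, at 1.72 ± 0.32 (SE, n = 5 per group, edgeR adjusted p = 0.0541 for each). Scin averaged 50 ± 25.4 CPM in periodontitis pups and 116 ± 18.6 CPM in control pups, and Il33 11.5 ± 2.79 and 29.1 ± 13.2 CPM (SD). Clca4a, a relative of Clca1, was at 54.1 ± 61.5 and 402 ± 199 CPM (log2 fold change -2.89 ± 0.74, adjusted p = 0.0887). DESeq2 called 7 of the 14 genes named here, these 4 with Gcnt4, Muc3 and Cftr, where it called 3.43% of all genes. Limma-voom called all 14, where it called 29.8% of all genes. The 14 were chosen for their small p in this comparison. The pairs with the smallest p in the other lists were Atoh1 (-0.56 ± 0.22) and Klf4 (-0.56 ± 0.27), the glycosyltransferase genes Gcnt4 (-0.57 ± 0.16) and Galnt4 (-0.39 ± 0.13), Muc3 (-1.57 ± 0.53) and Muc20 (-0.99 ± 0.57), and Cftr (-0.52 ± 0.15) and Mep1b (-0.67 ± 0.23). Guca2a was at 0.54 ± 0.18 and Il18 at -1 ± 0.32. Without 2-week control library 5, Il18 was at -0.48, Atoh1 at -0.25, Il33 at -1.01 and Clca4a at -2.56.

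At 7 weeks the gene nearest to a call in these lists was Retn, the adipocyte hormone resistin and a relative of Retnlb. It had 1.02, 1.64, 1.11, 3.61 and 0.0289 CPM in 7-week periodontitis pups and 0 to 0.0995 CPM in 7-week control pups, so periodontitis library 5 lay among the control libraries and the other 4 above them. Its log2 fold change was 4.48 ± 0.82 (SE, n = 5 per group, edgeR adjusted p = 0.104), and DESeq2 (adjusted p = 0.000208) and limma-voom (adjusted p = 0.0374) called it. Leaving out 1 library gave an edgeR adjusted p from 0.00105, without periodontitis library 5, to 0.475. The remaining pairs had an edgeR adjusted p of 1 each and lay from -0.82 ± 0.52 for Retnlg, a further relative, to 0.45 ± 0.23 for Muc3a. Between them lay Galnt5 (-0.4), Atoh1 (-0.35), Il22ra1 (-0.28), Stat6 (-0.26), Txndc5 (-0.22), Hes1 (0.25), Slc26a3 (0.28), Guca2a (0.33), Scin (0.33), Cftr (0.38) and Muc4 (0.38).

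For the difference of the dam comparison between the ages, edgeR called 1 gene of these lists, Retn, at 7.05 ± 1.15 (adjusted p = 0.0238), and that call was lost in 14 of 20 fits that left out 1 library. Not called were Muc3 (1.92 ± 0.73), Il33 (1.58 ± 0.4), Scin (1.54 ± 0.35), Il18 (1.12 ± 0.45), Cftr (0.9 ± 0.21), Muc4 (0.78 ± 0.53), Slc26a3 (0.71 ± 0.29), Klf4 (0.62 ± 0.38), Gcnt4 (0.57 ± 0.23), Galnt4 (0.46 ± 0.19), Hes1 (0.25 ± 0.24) and Ccl6 (-0.4 ± 0.29), with adjusted p from 0.186 to 0.767. Without 2-week control library 5, Il18 was at 0.59, Il33 at 1.26, Hes1 at 0.11 and Ccl6 at -0.23.

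Among libraries of 1 group, the goblet genes moved together only in part. After each group's mean was taken away, log2 CPM of Fcgbp and Tff3 correlated at r = 0.95 over the 20 libraries (0.86 without 2-week control library 5), and Clca1 and Zg16 at 0.78 (0.78). Muc2 and Tff3 correlated at 0.15 and at 0.77 without that library. Agr2 and Muc2 were at 0.18 and 0.13. The genes whose levels were most like that of Muc2 in this sense, among 11674 outside the 10, were the nucleotide sugar transporter Slc35d1 (r = 0.89), Ccdc6 (0.88), Tmem139 (0.84), Muc3 (0.84) and Fos (0.83). These are descriptions over 20 libraries that share depth and tissue makeup, and they carry no test.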

How the data were processed

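PolyA RNA of mouse small intestine was extracted with a column kit and sequenced, per the labels' protocols. The authors' deposited table holds 1 expected count per gene and library. Per the submitters' processing notes the tools were cutadapt 4.8, FastQC 0.11.8, STAR 2.7.8a and RSEM 1.3.3, and the builds GRCh38 and GRCm38. The annotation release and strandedness are not given in the sources used here, so reads of overlapping genes cannot be told apart. RSEM estimates counts and may split reads between close relatives.

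The deposited expected counts were whole numbers, so rounding changed 0 values. Of 55491 lines, 4 name no mouse gene and held 0 counts. Places and exon lengths came from GENCODE M21 on GRCm38, which matched 55227 gene IDs. Groups and replicate numbers came from the labels. EdgeR 4.0.16 in R 4.3.3 kept 17464 genes (filterByExpr, losing at most 0.0838% of the counts of a library), scaled by TMM and fitted a robust quasi-likelihood model with 1 mean per group over the 20 libraries (common dispersion 0.0989, 16 residual degrees of freedom). P-values are two-sided, with Benjamini-Hochberg adjustment across those genes, and 0.05 was the threshold. The SE was worked back from the log2 fold change and its F statistic. Log2 CPM use a prior count of 2. Floors of 3 counts cover counting error only. The comparisons share groups, since the dam and age comparisons use the same 4 group means.

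All 10 genes are named in every comparison. Of each other list, up to 4 called genes with the smallest p are named, or 2 where none was called. The genes and lists were chosen with earlier results of these data known. Other fits tried were DESeq2 1.42.0, edgeR with size factors from DESeq2, limma-voom (limma 3.58.1) with sample quality weights, either no filter or CPM above 1 in at least 5 libraries, only the groups compared, no robust estimation, a block for the replicate number, removal of each library in turn and of both libraries that stood apart, and, chosen after the data were seen, scaling to pan-epithelial genes. The procedure was tested on simulated data. No 2 libraries of the same group agreed within sampling noise, and libraries of different groups were not compared in this way.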

Additional observations from a re-analysis of the deposited data

Results flagged for a closer look

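In 2-week control pups, library 5 lay far from the other 4 libraries for 3 of the genes. Tff3 was at 87.2 CPM where the others were at 479 to 546, Spdef at 2.82 CPM where the others were at 20.3 to 25.3, and Spink4 at 364 CPM where the others were at 119 to 148. By Dixon's test at the 95% level 3 of 37 gene and group pairs were set apart, and chance sets apart about 1 in 20. All 3 were in this library, which also had the highest mitochondrial share (29.4%).

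Retn, the adipocyte hormone resistin and a relative of Retnlb, had a dam difference that was not alike at the 2 ages, by 7.05 ± 1.15 on the log2 scale (SE, edgeR adjusted p = 0.0238). This call was lost in 14 of 20 fits that left out 1 library (adjusted p up to 0.0818), with the replicate block (0.317) and with epithelial scaling (0.0634). Retn averaged 1.48 ± 1.33 CPM in 7-week periodontitis pups and 0.0634 ± 0.0431 CPM in 7-week control pups, against 0.0457 ± 0.0322 and 0.27 ± 0.0809 CPM in 2-week periodontitis and control pups (SD, n = 5 each). Of 6 adipocyte markers, 5 had enough counts to be tested, Retn among them. The mean log2 CPM of these 5 ran from -1.48 to 3.59 in 7-week periodontitis pups and from -0.74 to 0.24 in 7-week control pups. Their part in the value of Retn was not tested.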

How the results depend on the processing

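The age calls of the 9 genes depended little on the tool: 8 were called in periodontitis pups and 9 in control pups by DESeq2 and limma-voom too, and leaving out 1 library gave 7 to 8 and 8 to 9. With epithelial scaling 6 were called in each kind of pup, and 8 in each when 2-week control library 5 was also left out. Between dams, 0 of 9 was called at both ages under each alternative except limma-voom, which called 4 at 2 weeks and 1 for the difference between ages.

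No pairing by replicate number was found: same-numbered libraries deviated together at correlations from -0.397 to 0.288, and a fit with the replicate block left the calls among the 9 genes at 8 for age in periodontitis pups, 9 for age in control pups and 0 between dams at both ages and for the difference between ages. In that block fit Tff3 at 2 weeks between dams was at 0.04 and Spdef at 0.02.

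Epithelial scaling moved the median of all genes, so its signs are relative to pan-epithelial genes. For age that median was -0.84 in periodontitis pups and -1.01 in control pups, in place of -0.11 and -0.13. Between dams at 2 weeks it was -0.01 with all libraries and 0.29 without 2-week control library 5, in place of 0.02. The following signs turned, and the cause was not tested. Between dams at 2 weeks, no filter gave Fcgbp 0.01, Spdef 0.01 and Muc13 0.01, limma-voom gave Muc13 0.06, leaving out both libraries that stood apart gave Muc13 0.01, epithelial scaling gave Tff3 0.14, Fcgbp 0.1 and Spdef 0.2, and the same without 2-week control library 5 gave Muc2 0.18, Fcgbp 0.01, Clca1 0.02 and Muc13 0.29. Between dams at 7 weeks, leaving out both gave Zg16 0.02, Muc13 0.08 and Muc4 -0.03, limma-voom gave Muc4 -0.03, and epithelial scaling with and without that library gave Agr2 0.01. For the difference between ages, DESeq2 and its size factors gave Muc13 0.01, leaving out both gave Tff3 0.21, Fcgbp 0.13, Clca1 -0.1 and Muc13 0.06, limma-voom gave Tff3 0.18, Fcgbp 0.11 and Clca1 -0.03, no filter gave Clca1 -0.02, epithelial scaling gave Muc13 0.17, and without that library Muc2 -0.1, Clca1 -0.25 and Hes1 -0.09. For age, epithelial scaling gave Nlrp6 -0.16 and Stat6 -0.01 in periodontitis pups with and without that library, and Clca1 -0.34, C1galt1 -0.15, Slc26a3 -0.28 and Stat6 -0.13 in control pups.

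Over single left-out libraries, dam differences at 2 weeks ran from -0.23 to 0.14 for Fcgbp, -0.07 to 0.02 for Muc13, -0.28 to 0.09 for Muc2, -0.28 to 0.11 for Spdef and -0.28 to 0.1 for Tff3. At 7 weeks they ran from -0.19 to 0.05 for Agr2, -0.25 to 0.08 for Muc13, -0.1 to 0.14 for Muc2, -0.03 to 0.57 for Muc4 (0.38 with all libraries), -1.26 to 0.01 for Retnlg (-0.82 with all libraries) and -0.19 to 0.02 for Zg16. The difference between ages ran from -0.15 to 0.22 for Clca1, -0.27 to 0.1 for Fcgbp, -0.22 to 0.1 for Muc13, -0.07 to 0.31 for Muc2 and -0.26 to 0.12 for Tff3, and the age difference of Spink4 in periodontitis pups from -0.19 to 0.07. Of the 5 genes edgeR called between dams at 2 weeks among all genes, none was a goblet gene, and that count was 599 in DESeq2, 5200 in limma-voom, 17 without robust estimation and 0 with the block. The call of Retn for the difference between ages was lost in 14 of 20 fits without 1 library (adjusted p up to 0.0818), with the block (0.317) and with epithelial scaling (0.0634). The age call of Nlrp6 in periodontitis pups was lost in 16 of these 20 fits, without a filter (adjusted p = 0.119), in the fit of the compared groups alone (0.0509) and with the block (0.0559).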
